A study of Mus musculus with 4 samples.

Results

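The mitochondrial ribosomal proteins were followed in CD4+CD25+ T-cells that did or did not secrete IL-10 after stimulation with a CD28 superagonist. Every probe set whose only annotated gene symbol was Mrpl or Mrps followed by a number was taken, and each gene was read from its brightest probe set by the mean over 4 arrays. This gave 76 genes of the 18193 that the arrays name, on 156 probe sets. By symbol 47 of them encode proteins of the large subunit (Mrpl) and 29 proteins of the small subunit (Mrps).

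Mitochondria carry their own ribosome, which translates the few messenger RNAs transcribed from mitochondrial DNA, all of them for subunits of the respiratory chain and the ATP synthase. Its RNA comes from the mitochondrial genome, but every one of its proteins is encoded in the nucleus, made on cytosolic ribosomes and imported. Some of these proteins descend from bacterial ribosomal proteins and others occur only in mitochondria. The roles given below are those known from mammalian mitochondrial ribosomes. Activated T-cells are known to build up mitochondria as they grow and divide.

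Both groups came from C57BL/6 mice aged 6 to 12 weeks that had received the superagonistic anti-CD28 mAb D665 (CD28SA) i.p. Their lymph node CD4+CD25+ cells were taken 3 days later. According to the sample protocols the cells were kept overnight in medium that held 2 µg of anti-CD3 and 5 µg of anti-CD28 per ml along with 200 U/ml of IL-2, stained for secreted IL-10 and sorted into an IL-10+ and an IL-10- fraction, so that both fractions had seen the same antibodies. There were 2 arrays per group (IL-10+ replicates 1 and 2, IL-10- replicates 3 and 4), 1 per sample, and nothing in the labels says whether they were separate mice or sorts, so that a p-value here speaks of the spread among these 4 arrays, which may be technical. Differences are IL-10+ minus IL-10- on the log2 scale of the deposited values, and a gene is called lower or higher where limma's adjusted p was under 0.05. With 2 arrays against 2, an exact permutation test of a single value could not go below p = 0.333.

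The labels were checked on Il10 itself, which read 12.02 and 12.00 in IL-10+ and 10.41 and 10.37 in IL-10- cells. The markers of the sorted population were present in all samples (6 of 6 CD4+CD25+ T-cell genes above the array median). Of these 6 genes 3 were higher in IL-10+ cells, Ctla4 by 0.87, Cd4 by 0.51 and Cd3g by 0.41 (log2 difference). Foxp3 was lower by 0.72. Their summed level was 14.65 and 14.63 in IL-10+ against 14.33 and 14.48 in IL-10- samples (log2). All 8 B cell and plasma cell markers were lower in IL-10+ cells, and their summed level was 9.86 and 9.89 in IL-10+ against 13.24 and 13.34 in IL-10- samples (log2). Of 4 NK cell markers 2 were lower and 1 higher (summed level 10.93 or above in IL-10+ against 10.44 and 10.37), of 2 CD8 markers 1 was lower (8.32 and 8.25 against 8.58 and 8.45), and of 6 myeloid markers 2 were higher (10.57 and 10.52 against 9.94 and 9.92). The 5′ probe sets of the 4 poly-A control transcripts were also higher in IL-10+ arrays, by a median of 1.22, against 0.04 for their 3′ probe sets. The part of these in the results below was not tested.

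Transcripts for the mitochondrial ribosome were lower in the IL-10+ cells. Of the 76 genes 51 were lower, 0 were higher and 25 did not pass the test (limma). The median difference over all 76 was -0.36, with a range from -0.91 to 0.22. Among all 18193 genes, 22.9% were lower and 8.37% higher, with a median difference of -0.01. The share of lower genes was greater among bright genes in general: of the 3530 genes with a mean of 9 or more, 45.5% were lower and 14.7% higher (median -0.19), while 40 of the 58 members in that range were lower and 0 higher (median -0.34). In 67 of the 76 genes both IL-10+ arrays lay below both IL-10- arrays, as they did in 37.8% of all genes, and in 2 they lay above. In sorted samples, fewer cells of a type and less RNA per cell cannot be told apart.

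Falls were moderate in size. The study called array differences that were 2-fold or larger and had an adjusted p below 0.001. With the values read as log2 no member reached 2-fold (0 of 76), and 0.792% of all genes were lower at that threshold (limma). Read as natural logs, 4 members were lower at it, and the share of all genes on that scale is not given here. In 17 members the difference was below -0.5, and the smallest fall that passed was -0.20. Replicates lay close together, with a median SD within a group of 0.05 and a highest of 0.24.

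**Figure D1:**
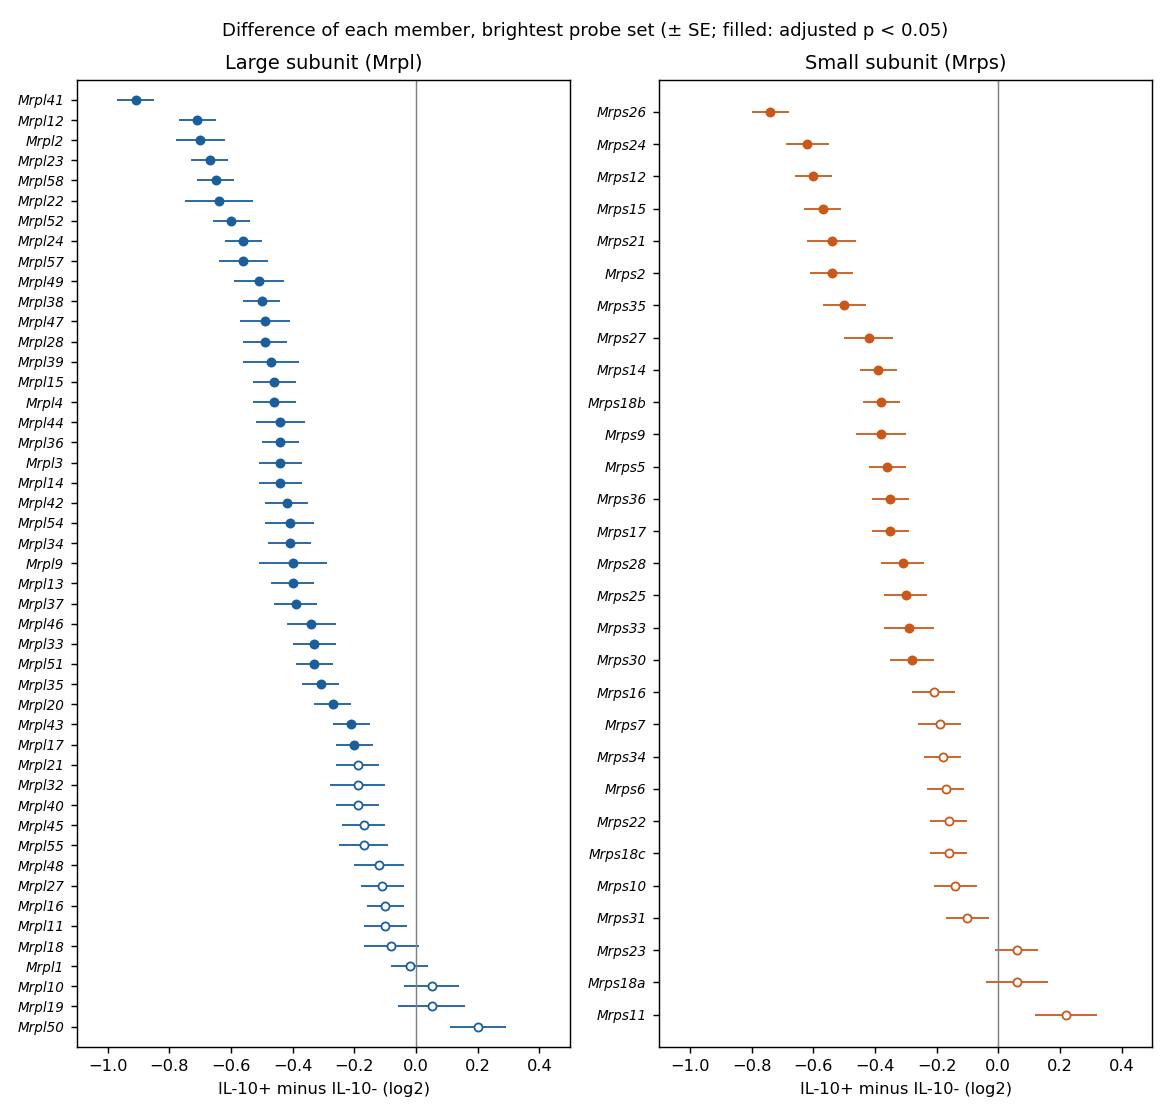
Difference between IL-10+ and IL-10- cells (log2, IL-10+ minus IL-10-, x axis) for each of the 76 mitochondrial ribosomal protein genes, with the large subunit on the left and the small subunit on the right. Points are the brightest probe set of each gene, bars the standard error of the fit over 2 arrays per group, and filled points passed an adjusted p of 0.05. All 51 filled points lie left of 0, and the 6 points right of 0 are open.

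Mrpl41 and Mrps26, which both encode proteins with no bacterial counterpart, changed most in their subunits on the brightest probe sets. Mrpl41, whose protein has also been described as a binding partner of BCL2, read 9.61 and 9.66 in IL-10+ and 10.53 and 10.55 in IL-10- cells. The IL-10+ level was thus 53.3% of that in IL-10- cells (difference -0.91 ± 0.06, SE, limma adjusted p = 6.3e-05). The size of this fall depended on the probe set read. With a mean of 9.68 against 10.09 for the brightest, 1428589_at was lower by less (-0.43, limma adjusted p = 0.00205). The dim 1428590_at did not pass (0.12). Mrps26 read 9.33 and 9.36 against 10.09 and 10.08 (-0.74 ± 0.06, limma adjusted p = 0.000136). On the brightest probe set of both genes the gap between the groups was many times the distance between replicates.

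Among the other large falls were Mrpl2, Mrps12 and Mrps24, whose products are counterparts of bacterial proteins with known places in the ribosome. Mrpl2, which lies close to the peptidyl transferase centre, read 8.88 and 9.0 against 9.56 and 9.72 (-0.70 ± 0.08). Mrps12, part of the decoding centre of the small subunit, read 9.40 and 9.44 against 10.02 and 10.02 (-0.60 ± 0.06). Mrps24, the counterpart of bacterial S3, read 9.76 and 9.81 against 10.34 and 10.46 (-0.62 ± 0.07). None of these 3 genes had overlapping groups, and their limma adjusted p-values lay between 0.000343 and 0.00054.

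On the brightest probe sets, the stalk of the large subunit, which recruits translation factors, did not move as a unit. Mrpl12, whose protein also binds the mitochondrial RNA polymerase, read 9.01 and 9.04 in IL-10+ against 9.75 and 9.72 in IL-10- cells and was lower (-0.71 ± 0.06, limma adjusted p = 0.000164). Its partners did not pass on these probe sets: Mrpl11 differed by -0.10 and Mrpl10 by 0.05, and for Mrpl10 the groups overlapped (9.26 and 9.42 against 9.19 and 9.40). For Mrpl11 this depended on the probe set read. With a mean of 8.99 against 9.01 for the brightest, 1437131_x_at was lower (-0.29, limma adjusted p = 0.0187). A dimmer one, 1437839_x_at, was lower too (-0.37, limma adjusted p = 0.0107), and 1438080_at did not pass (-0.04).

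Around the exit of the peptide tunnel 5 of 7 genes were lower (71.4%), with a median difference of -0.49. This share was near that of all large subunit genes (70.2%, median -0.40). Among genes with a mean of 9 or more 45.5% were lower, and among all genes 22.9%. Mrpl23 read 9.51 and 9.58 against 10.22 and 10.21 (-0.67 ± 0.06, limma adjusted p = 0.000248). Mrpl22 read 9.36 and 9.40 against 9.86 and 10.19, with the widest error of the larger falls (-0.64 ± 0.11, limma adjusted p = 0.00293). Mrpl24 (-0.56) and Mrpl47 (-0.49) were lower as well. Mrpl17 only just passed (-0.20, limma adjusted p = 0.0474) and did not pass in 8 of 14 settings, among them the fits without any 1 of the arrays, which left 4 to 5 of the 7 genes lower. Mrpl32 (-0.19) and Mrpl45 (-0.17), which anchors the ribosome to the inner membrane, did not pass.

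Mrpl58, also known as Ict1, is a peptidyl-tRNA hydrolase that became part of the large subunit and releases stalled ribosomes. Its values were 9.31 and 9.32 against 9.97 and 9.96 (-0.65 ± 0.06, limma adjusted p = 0.000234). Mrpl52, a mitochondria-specific protein and one of the 3 members with the highest signal, read 10.92 and 10.88 against 11.53 and 11.48 (-0.60 ± 0.06, limma adjusted p = 0.000369). The other 2 with high signal moved less: Mrpl33 read 11.02 and 11.10 against 11.34 and 11.43 (-0.33, lower), and Mrps6 read 11.22 and 11.22 against 11.36 and 11.41 (-0.17, not passed). Mrpl33 did not pass without IL-10+ replicate 1, with quantile normalization or under bright-gene centring (limma adjusted p = 0.0867, 0.0613 and 0.102).

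The 3 dimmest members were lower too. Mrps27, a pentatricopeptide repeat protein of the small subunit, read 6.97 and 7.12 against 7.51 and 7.41 (-0.42). Mrpl38 read 7.31 and 7.28 against 7.80 and 7.80 (-0.50), and Mrps5 read 7.41 and 7.46 against 7.77 and 7.82 (-0.36). Of the 18 members with a mean under 9, 11 were lower (61.1%) and 0 higher, with a median of -0.38. Among all genes, whatever their mean, 22.9% were lower.

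Among the 25 genes that did not pass, 19 had values below 0, and in 16 of those 19 both IL-10+ arrays lay below both IL-10- arrays. Over all genes, whatever their sign or call, this was so in 37.8%, and in 2176 of the 3530 with a mean of 9 or more. Values above 0 were seen in 6 of the 25 members. Mrps11 read 8.56 and 8.46 against 8.42 and 8.15 (0.22 ± 0.10, limma adjusted p = 0.132), and Mrpl50 read 7.86 and 8.04 against 7.66 and 7.84 (0.20 ± 0.09, limma adjusted p = 0.144). These were the only members whose IL-10+ arrays both lay above the IL-10- arrays. Mrps23 (0.06), Mrps18a (0.06), Mrpl19 (0.05) and Mrpl10 (0.05) had overlapping groups. For Mrpl19 and Mrps23 a dimmer probe set was lower (1421914_s_at, -0.37, and 1459806_x_at, -0.53), so that their sign depends on the probe set read.

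The large and the small subunit were then set side by side. Of the 47 large subunit genes 33 (70.2%) were lower, with a median difference of -0.40, and of the 29 small subunit genes 18 (62.1%), with a median of -0.31. Relative to the IL-10- mean, the median large subunit gene stood at -0.43 and -0.35 on the IL-10+ arrays and at -0.03 and 0.03 on the IL-10- arrays. The median small subunit gene stood at -0.34 and -0.28 against -0.02 and 0.02. Both subunits were thus lower on both IL-10+ arrays, and their ranges overlapped (-0.91 to 0.20 and -0.74 to 0.22). The difference between the subunits was not tested, since genes are not replicates. Without any selection of members, the median of all genes was at -0.02 and -0.02 on the IL-10+ arrays, and that of genes with a mean of 9 or more at -0.20 and -0.17.

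**Figure D2:**
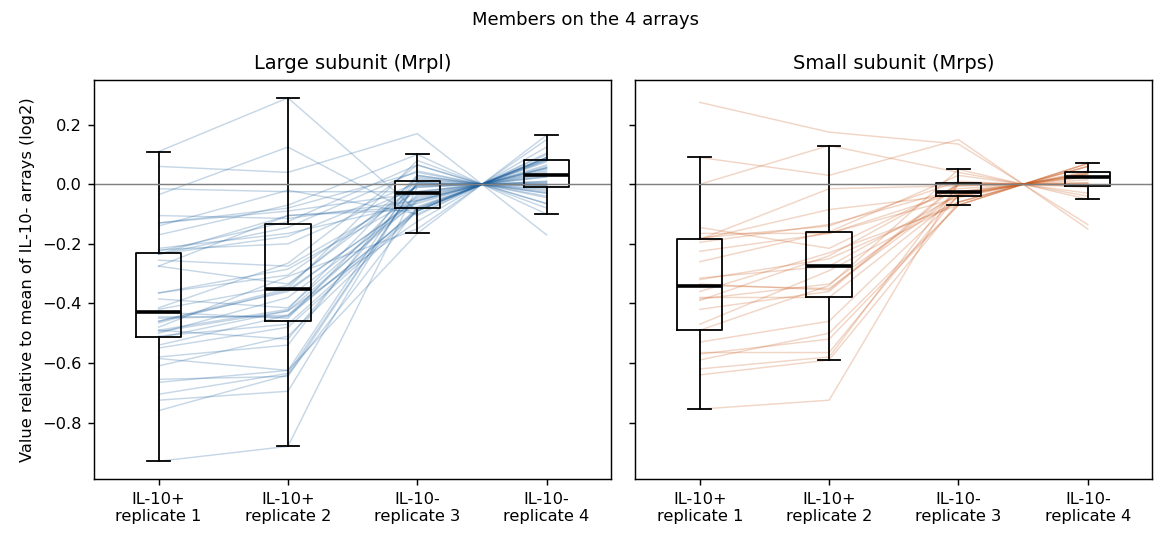
Value of each member on each of the 4 arrays relative to its mean over the IL-10- arrays (log2, y axis), with 1 thin line per gene. Boxes span the quartiles, thick bars are medians and whiskers reach the farthest gene within the usual boxplot limit. The medians lie between -0.43 and -0.28 on the IL-10+ arrays of either subunit, and the IL-10- arrays mirror each other around 0 because their mean is the reference.

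A few symbols do not say where a protein sits. Mrps18a and Mrps30 belong to the large subunit in mammalian structures, and Mrps36 is a component of the 2-oxoglutarate dehydrogenase complex. Mrps30 was lower (9.02 and 9.09 against 9.28 and 9.40, -0.28), a call that was lost without IL-10+ replicate 1 or 2 (limma adjusted p = 0.138 and 0.0626). Mrps36 was lower (9.61 and 9.60 against 9.92 and 9.98, -0.35), and Mrps18a did not pass (9.35 and 9.29 against 9.41 and 9.11). With these genes placed by structure, 34 of 49 large subunit genes (median -0.40) and 16 of 26 small subunit genes (median -0.33) were lower.

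The members were next divided by descent. Of the 47 proteins with a bacterial counterpart 30 were lower (63.8%), and of the 28 mitochondria-specific ones 20 (71.4%), beside 22.9% of all genes. The median difference was -0.36 in both sets of members, and the difference between the sets was not tested. Mrps36 was left out of both.

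Of the members, 42 had more than 1 probe set. Over all 156 probe sets 75 were lower and 3 higher, against 16.2% lower and 13.6% higher of the 45037 probe sets tested. The 80 dimmer probe sets held 24 lower, 3 higher and 53 that did not pass. Most of the latter gave little signal: of the 47 dimmer probe sets with a mean under 7, 3 were lower and 1 higher, whereas of the 25 with a mean of 8 or more, 20 were lower and 1 higher.

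In 3 genes the probe sets passed in opposite directions. Mrpl9, the counterpart of bacterial L9, was lower on its brightest probe set (1437749_s_at, 9.88 and 10.05 against 10.21 and 10.51, -0.40, limma adjusted p = 0.0278), and this call was lost without IL-10+ replicate 1 (limma adjusted p = 0.145). A dimmer Mrpl9 probe set (1430976_a_at) read 9.13 and 9.23 against 8.49 and 8.28 and was higher by 0.80 ± 0.09 (limma adjusted p = 0.000436). For Mrpl44, which carries a ribonuclease III fold, 1437391_x_at (8.86 and 8.98 against 9.30 and 9.42, -0.44) and 1452144_a_at (-0.54) were lower, but 1430990_s_at was higher (7.88 and 7.91 against 7.48 and 7.37, 0.47). For Mrps2, 1420846_at was lower (7.88 and 7.93 against 8.38 and 8.52, -0.54) and 1420845_at higher (6.93 and 6.96 against 6.74 and 6.61, 0.27). The direction of these genes therefore depends on the probe set read.

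**Figure D3:**
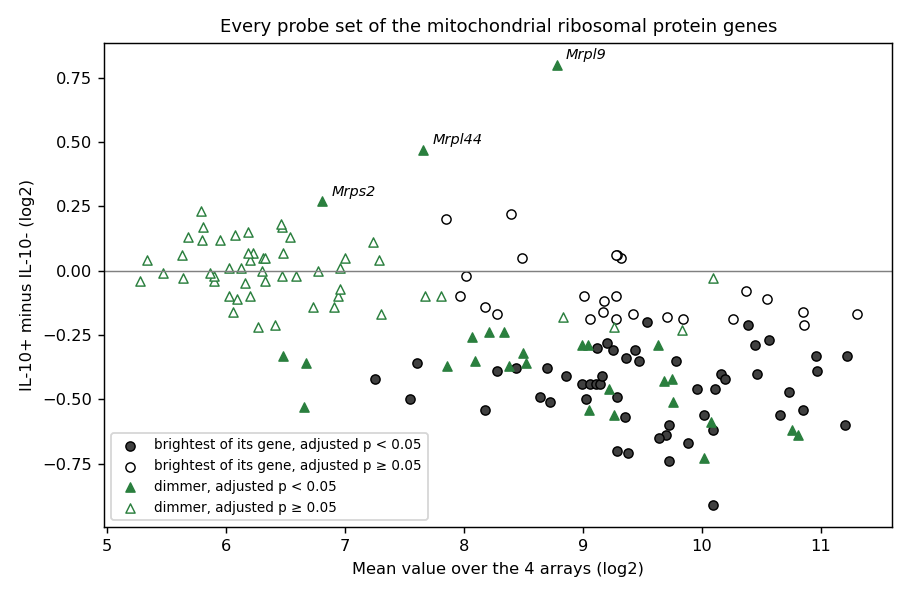
Difference between IL-10+ and IL-10- cells (log2, y axis) against the mean value over the 4 arrays (log2, x axis) for all 156 probe sets of the members. Circles are the brightest probe set of a gene and triangles the dimmer ones, and filled symbols passed an adjusted p of 0.05. Most triangles with a mean under 7 are open and close to 0, and the 3 filled triangles above 0 belong to Mrpl9, Mrpl44 and Mrps2.

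Mrpl30 and Mrpl53 were measured only by probe sets that name a further gene, and are not counted among the 76. The probe set of Mrpl30 and Gm6238 read 10.93 and 10.92 against 11.52 and 11.40 (-0.54), and that of Mrpl53 and Ccdc142 read 9.62 and 9.67 against 9.90 and 9.95 (-0.29). Both were lower, but their signal cannot be assigned to a single gene.

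Genes that act with the mitochondrial ribosome were read in the same way from lists chosen by function. Over 83 such genes 40 were lower (48.2%) and 2 higher, with a median of -0.19, beside 22.9% of all genes lower. The difference between lists was not tested. Proteins of the ribosome that go by other symbols were lower in 4 of 4 cases. Dap3, the GTP-binding protein of the small subunit, read 10.16 and 10.20 against 10.85 and 10.94 (-0.71), Ptcd3 differed by -0.56, Chchd1 by -0.47 and Gadd45gip1 by -0.47.

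Assembly factors and enzymes that modify the ribosomal RNA were lower in 13 of 21 cases and higher in 1 (median -0.36). Dhx30, an RNA helicase needed for assembly, read 8.77 and 8.70 against 9.51 and 9.76 (-0.90), and the GTPase Noa1 read 7.82 and 7.75 against 8.43 and 8.51 (-0.69). Rbfa, which helps to mature the small subunit, differed by -0.61 and the RNA methyltransferase Nsun4 by -0.56. The exception was the helicase Ddx28, which read 9.40 and 9.39 against 9.01 and 9.21 and was higher (0.28, limma adjusted p = 0.033). That call was lost under median centring (limma adjusted p = 0.101) and without IL-10+ replicate 1, IL-10+ replicate 2 or IL-10- replicate 3 (0.137, 0.123 and 0.0829).

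Genes for mitochondrial transcription and RNA processing were lower in 8 of 12 cases (median -0.33), in 5 without IL-10+ replicate 1, in 4 without IL-10+ replicate 2 and in 4 under bright-gene centring. Lrpprc and Slirp, whose products form a complex that stabilises mitochondrial messenger RNA, differed by -0.77 (7.63 and 7.66 against 8.31 and 8.52) and -0.64 (10.13 and 10.13 against 10.73 and 10.82). Elac2, which cuts the 3′ ends of mitochondrial tRNAs, differed by -0.54 and the elongation factor Tefm by -0.47.

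Of 10 translation factors 2 were lower and 1 higher, with a median of -0.06, against 22.9% and 8.37% of all genes. The elongation factor Gfm1 read 8.42 and 8.42 against 8.73 and 9.01 (-0.45), and the recycling factor Mrrf read 7.67 and 7.78 against 8.11 and 8.13 (-0.40). Gfm2, which acts with Mrrf in ribosome recycling, was higher (8.0 and 7.96 against 7.55 and 7.47, 0.47, limma adjusted p = 0.0013). Of 16 mitochondrial aminoacyl-tRNA synthetases 5 passed, all of them lower (31.2%, median -0.09, 3 without IL-10+ replicate 1), with Yars2 at -0.64, Tars2 at -0.59, Lars2 at -0.38 and Ears2 at -0.35.

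Of 11 genes for mitochondrial protein import 5 passed, all of them lower (45.5%, median -0.15). Among all genes 22.9% were lower, and among genes with a mean of 9 or more 45.5% (median -0.19). Of the import genes 3 were lower without IL-10+ replicate 1, with quantile normalization and under bright-gene centring, where 2 were higher. The largest of these falls was in Timm50, a receptor of the inner membrane translocase (8.04 and 8.09 against 8.88 and 8.94, -0.84). Timm44 differed by -0.59, Tomm70a by -0.40 and Timm23 by -0.30, and Timm23 did not pass without IL-10+ replicate 1 (limma adjusted p = 0.105). Of 9 nuclear regulators of mitochondrial genes 3 were lower (33.3%, median -0.15), beside 22.9% of all genes. They were the coactivators Pprc1 (-0.54) and Ppargc1b (-0.34) and the transcription factor Nrf1 (8.38 and 8.27 against 8.70 and 8.80, -0.42). The Nrf1 call was lost with the gene read as the mean of its probe sets. The values of Gabpa (0.01), Yy1 (-0.15), Esrra (0.06) and Myc (-0.04) did not pass. Without IL-10+ replicate 1, Ppargc1b and Ears2 did not pass either (limma adjusted p = 0.186 and 0.159).

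**Figure D4:**
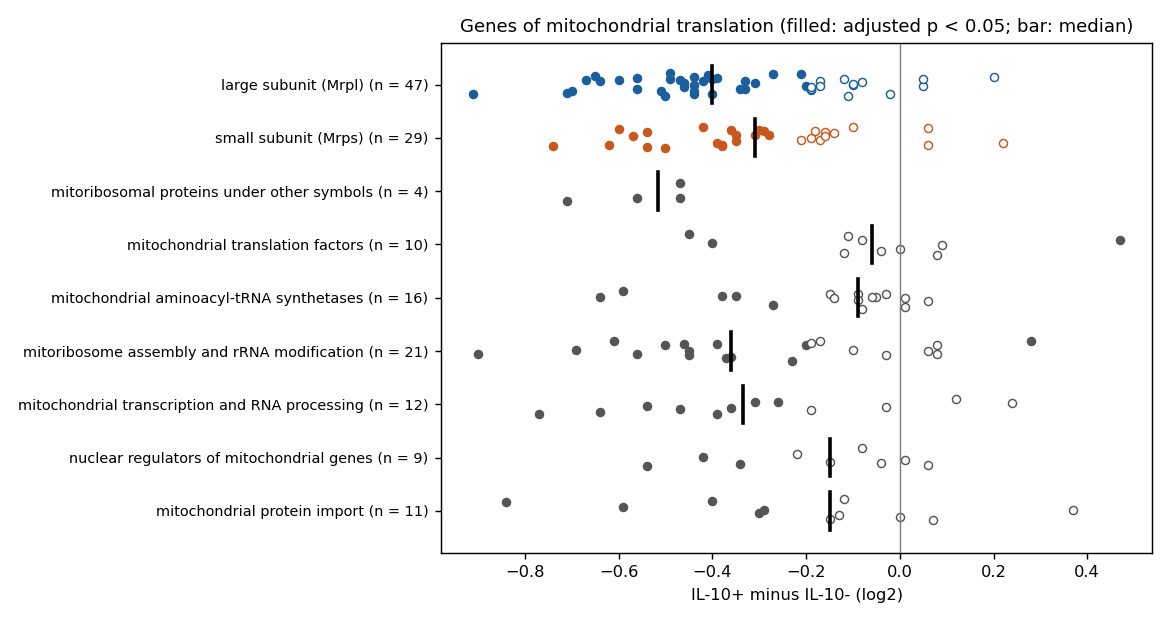
Difference between IL-10+ and IL-10- cells (log2, x axis) for the members by subunit and for 7 lists of genes that act with the mitochondrial ribosome. Each point is the brightest probe set of a gene, filled where the adjusted p was under 0.05, and vertical bars are medians. The medians of the members and of the assembly list lie between -0.40 and -0.31, and those of translation factors and aminoacyl-tRNA synthetases at -0.06 and -0.09.

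For comparison, 39 cytosolic ribosomal protein genes were read by the same rule. Of these 16 (41.0%) were lower and 2 higher, with a median of -0.17, and the median gene stood at -0.17 and -0.18 on the IL-10+ arrays. Under bright-gene centring 10.3% of the cytosolic genes and 44.7% of the members were lower, and under median centring 64.1% and 80.3%. With each gene read as the mean of its probe sets, the shares were 56.4% and 64.5% and the medians -0.19 and -0.22. The difference between the 2 kinds of ribosome was not tested.

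How far the members stood from other genes depended on the scale. When each array was centred on the median of its genes with a mean of 9 or more, a setting chosen after seeing the data, the median of all genes moved from -0.01 to 0.16, and 13.1% of all genes were lower and 33.2% higher. Of genes with a mean of 9 or more 29.2% were then lower and 26.3% higher (median -0.02), and of the members 34 were lower (44.7%) and 3 higher (median -0.18). Under median centring 29.8% of all genes were lower and 5.59% higher (median -0.09), with 61 members lower and 0 higher. With quantile normalization 34.4% of the genes with a mean of 9 or more were lower and 22.2% higher, and 43 members were lower (56.6%) and 0 higher.

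The upstream sequences of the members were read from RefSeq (GRCm38.p6), from 250 bases before to 50 bases after the start of transcription. Such a window was found for 67 of the 76 genes, and 7 short motifs were searched on both strands by exact match. The promoters below are those of members described above: 4 with large falls and Mrps18a, which did not pass. Each line gives the 100 bases before the start, 5′ to 3′ on the strand of the gene, with matches in capitals. They lie at chr2:24975099-24975198 (minus strand, Mrpl41), chr2:130563657-130563756 (plus, Mrps26), chr11:58171564-58171663 (plus, Mrpl22), chr11:115403652-115403751 (plus, Mrpl58) and chr17:46110904-46111003 (plus, Mrps18a).
Mrpl41: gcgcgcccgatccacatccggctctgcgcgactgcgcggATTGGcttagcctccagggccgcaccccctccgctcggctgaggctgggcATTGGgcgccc
Mrps26: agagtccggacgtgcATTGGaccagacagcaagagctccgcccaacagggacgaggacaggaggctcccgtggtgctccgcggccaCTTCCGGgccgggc
Mrpl22: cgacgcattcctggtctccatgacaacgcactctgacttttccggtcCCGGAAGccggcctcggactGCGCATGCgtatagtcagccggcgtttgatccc
Mrpl58: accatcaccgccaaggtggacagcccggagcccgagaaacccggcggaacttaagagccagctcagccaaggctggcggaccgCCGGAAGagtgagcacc
Mrps18a: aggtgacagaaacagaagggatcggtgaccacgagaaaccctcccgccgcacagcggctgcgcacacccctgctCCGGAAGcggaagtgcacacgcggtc

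The capitals in Mrpl41 are 2 CCAAT boxes on the strand opposite to the gene (ATTGG). Mrps26 holds 1 of these and 1 ETS core, also on the strand opposite to the gene (CTTCCGG). Mrpl22 holds an ETS core (CCGGAAG) and the core of an NRF1 site on the strand opposite to the gene (GCGCATGC). Mrpl58 and Mrps18a each hold 1 ETS core in the stretch shown.

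The ETS core CCGGAAG, which GABP binds among other factors, was found in 25 of 67 members (37.3%) and in 9.93% of the 27025 genes with a window. The YY1 motif AAGATGGCG was found in 8 members (11.9%) against 1.64%, and the NRF1 core GCATGCGC in 8 (11.9%) against 3.05%. The SP1 motif GGGGCGGGG occurred in 19.4% against 12.9%, CCAAT in 38.8% against 41.1%, the E-box CACGTG in 7.46% against 8.09% and the ERR motif AAGGTCA in 5.97% against 5.38%. The ETS core and the YY1 motif share letters and could overlap, but in 0 members did matches to both lie within 9 bases. In all, 35 members held an NRF1, ETS or YY1 match. The 27025 genes were taken whether or not the arrays name them or gave signal for them. Shares among genes of like signal were not counted, so the contrast may not be particular to the members.

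The matches were also counted by the call of the member. The ETS core was present in 16 of 44 lower members (36.4%) and in 9 of 23 that did not pass (39.1%), the NRF1 core in 6 of 44 and 2 of 23, and the YY1 motif likewise in 6 of 44 and 2 of 23. Mrpl46 and Mrps11 lie head to head on chromosome 7 with start sites 42 bases apart, so that 141 bases of their windows are shared. Mrpl46 was lower (9.11 and 9.26 against 9.59 and 9.46, -0.34), whereas Mrps11 differed by 0.22 and did not pass. The Mrpl46 call was lost under bright-gene centring and with quantile normalization (limma adjusted p = 0.131 and 0.0599). It was also lost without IL-10+ replicate 1, where the difference was -0.27. A match in the sequence is not evidence of binding.

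**Figure D5:**
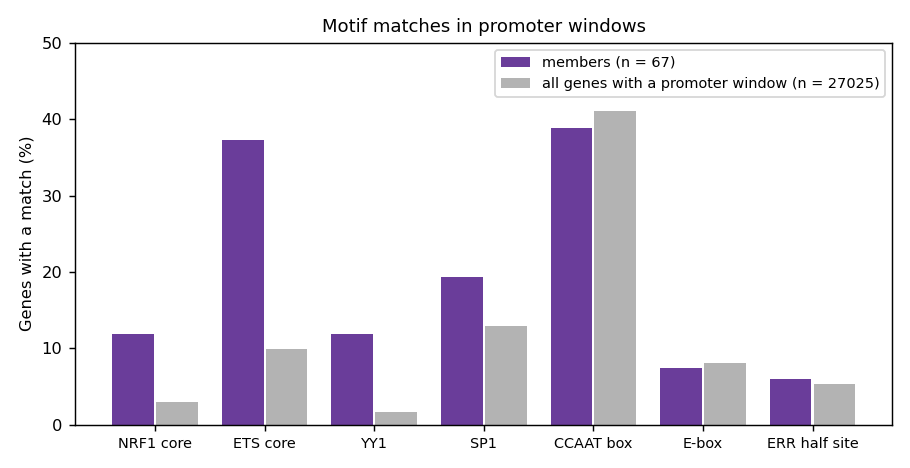
Share of genes with an exact match to each of 7 motifs on either strand of the promoter window (percent, y axis), for the 67 members with a window and for all 27025 genes with one. The bars of the members stand above those of all genes for the ETS core (37.3% against 9.93%), the NRF1 core and the YY1 motif, and lie within 3 percentage points for CCAAT, the E-box and the ERR motif.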

How the data were processed

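RNA of 2 IL-10+ and 2 IL-10- samples was hybridised to Affymetrix mouse genome arrays, 1 per sample. The authors isolated RNA with Trizol and normalized the intensities by variance stabilization. The deposited values, 1 for each probe set on each array, were taken as log2. The study gives its fold changes as natural logs, but the highest deposited value (14.42) lies beyond the natural log of the highest reading of the scanner (11.1), and the base of the table itself is not stated. How probes were summarised is not given in the sources used here. Since variance stabilization squeezes low signals together, differences of dim probe sets are understated. Array medians lay between 6.32 and 6.41. The number of arrays limits the precision.

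Of 45101 probe sets 64 controls were set aside and 45037 were fitted with limma 3.58.1 under R 4.3.3 (functions lmFit and eBayes, two-sided, Benjamini-Hochberg over all of them, 5.44 prior and 2 residual degrees of freedom). The fit was first tested on simulated data. Gene names came from the platform annotation (34958 probe sets name 1 gene, 932 several and 9211 are not listed), and matching to RefSeq GRCm38.p6 changed 0 symbols. Levels were not compared between genes.

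The members and gene lists were chosen with earlier results of these data known. Named were the 10 largest falls and up to 10 rises (there were 0), the 3 brightest and 3 dimmest members, members whose probe sets passed in opposite directions, Mrps18a, Mrps30 and Mrps36, and up to 4 passing genes of each list by size. Ddx28, Mrpl46, the genes with values above 0, the rest of the stalk and of the tunnel exit, the regulators that did not pass and the probe sets naming several genes were named after their values were seen. Some listed genes are not reported here. Alternatives were quantile normalization, median centring, bright-gene centring (added after seeing the data), a filter on dim probe sets, a trend or robust prior, other ways to pick a probe set, and leaving out each array. Python 3.11.15 with matplotlib 3.10.9 made the plots.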

Additional observations from a re-analysis of the deposited data

Results flagged for a closer look

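The 5′ probe sets of the poly-A control transcripts, which belong to no gene of the mouse, were higher on the IL-10+ arrays by a median of 1.22 over 4 transcripts (log2), while their 3′ probe sets differed by 0.04. On the dap transcript, for example, the 5′ probe set read 9.68 and 9.91 in IL-10+ against 8.14 and 7.14 in IL-10- samples.

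Dimmer probe sets that the comparison of genes did not use were higher in IL-10+ cells in 3 members whose brightest probe set was lower. The difference was 0.80 for Mrpl9, 0.47 for Mrpl44 and 0.27 for Mrps2.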

How the results depend on the processing

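The count of 51 lower members ranged from 34 (bright-gene centring) to 61 (median centring) over the other fits at an adjusted p of 0.05 (limma), and from 38 to 54 when an array was left out. Of these genes 27 were lower under all 14 settings and 37 whichever array was left out. Without probe sets of suffix x or s only 73 of the 76 members could be read. Mrpl37, Mrps12 and Mrps24 have only probe sets of suffix s, and therefore count as lower in 13 of the 14 settings. With the study's threshold 0 were lower, and with the values read as natural logs 4, with or without its stricter p. Higher members numbered 0 except under bright-gene centring (3, 1 large and 2 small: Mrpl50, Mrps11 and Mrps23) and in the range of 0 to 2 when an array was left out: Mrpl19 and Mrps11 without IL-10- replicate 3, and Mrpl50 without replicate 4 (0 to 1 in either subunit). Small subunit genes that were lower numbered 10 under bright-gene centring.

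The median difference of the large subunit was -0.23 under bright-gene centring, -0.21 with each gene read as the mean of its probe sets, -0.48 under median centring, -0.37 without probe sets of suffix x or s, -0.30 with quantile normalization and -0.43 to -0.35 when an array was left out. For the small subunit it was -0.14, -0.22, -0.39, -0.30 and -0.22 in the same order, and -0.34 to -0.28. The mean over probe sets thus put the subunits level, and the cause was not tested. It also turned Mrpl9 (0.06, adjusted p = 0.581) and Nrf1 (0.01, adjusted p = 0.929), and with it Mrpl44 (-0.15), Mrps2 (-0.14), Mrpl33 (-0.05), Mrps5 (-0.06) and Gadd45gip1 (-0.15) did not pass. Mrpl38 did not pass without suffix x or s (-0.02), nor did Gfm1 (-0.12). Of 271 values of named members 252 kept their call and of 337 values of named pathway genes 323, although the values of Mrps6 and Mrps18a, which did not pass, changed sign: Mrps6 to 0.01 under bright-gene centring, and Mrps18a to -0.02 under median centring and -0.09 without IL-10- replicate 4. Under bright-gene centring Mrpl33 (-0.16), Mrps5 (-0.19), Mrps30 (-0.11), Mrps36 (-0.17) and Mrpl9 (-0.23) did not pass, and with quantile normalization neither did Mrpl33 (-0.18) and Mrpl9 (-0.28). No paired analysis was possible because the groups share no replicate number.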
